A study of Mus musculus with 13 samples.

Results

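Late-stage T-ALL (LS), a T-cell acute lymphoblastic leukaemia, was compared with CD4-CD8- (DN) thymocytes by microRNA array. The comparison covers the mouse miRNAs that the scanner software detected on all 3 arrays of at least 1 of both groups, which were 229 of the 1122 mouse miRNAs on the array. Of these, 167 were detected on all 3 arrays of both groups, 43 on all 3 arrays of LS only and 19 on all 3 arrays of DN only. Another 39 miRNAs, detected on all 3 arrays of another group, were tested alongside them, giving 268 tested.

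All samples came from C57BL/6 mice, with 3 biological replicates a group. DN cells were sorted from the thymus as CD4-, CD8-. LS cells were sorted from the spleen as CD4+, CD8+ and came from bone marrow (BM) chimeras carrying N1ICD, the intracellular part of Notch1 that is active without ligand. CD4+, CD8+ (DP) thymocytes and early-stage T-ALL (ES), the latter with the same genotype, tissue and sort as LS, are used here to place the levels. LS and DN differ in disease, in tissue and in the markers of the sort, and these cannot be told apart. The DN gate selects on the absence of CD4 and CD8, so it can hold cells other than T-cell progenitors.

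MicroRNAs are short RNAs that guide Argonaute proteins to partly complementary messenger RNAs, which are then repressed. The seed, bases 2 to 8 of the mature miRNA, sets most of the target choice, so miRNAs that share a seed are grouped as a family. DN thymocytes include the progenitors that depend on Notch1 before they become DP cells, and activated Notch1 drives T-ALL. In thymocytes the miR-181 family tunes T-cell receptor signalling, and the miR-17~92 cluster promotes survival and proliferation and can act as an oncogene in Notch-driven T-ALL.

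The sequences below are those on which the comparison turns, with the seed in capitals, printed 5′ to 3′ from RefSeq (GRCm38.p6). A mature sequence was matched for 178 of the 229 miRNAs, 168 by name and 10 by synonym. Down to miR-20a-5p the lines are grouped by seed, and a new family starts where the capitals change. The lines from miR-155-5p on hold other miRNAs that were called.
miR-148a-3p: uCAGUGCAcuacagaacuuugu
miR-148b-3p: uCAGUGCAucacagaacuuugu
miR-27a-3p: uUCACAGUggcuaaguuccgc
miR-27b-3p: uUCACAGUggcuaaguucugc
miR-322-5p: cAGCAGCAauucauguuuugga
miR-15a-5p: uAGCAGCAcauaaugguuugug
miR-16-5p: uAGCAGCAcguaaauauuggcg
miR-449a-5p: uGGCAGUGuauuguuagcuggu
miR-34a-5p: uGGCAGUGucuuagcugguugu
miR-721: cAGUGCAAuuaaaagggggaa
miR-130b-3p: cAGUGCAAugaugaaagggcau
miR-301a-3p: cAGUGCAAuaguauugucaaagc
miR-181a-5p: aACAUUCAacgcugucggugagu
miR-181c-5p: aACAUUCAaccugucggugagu
miR-17-5p: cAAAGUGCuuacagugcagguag
miR-20a-5p: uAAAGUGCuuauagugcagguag
miR-155-5p: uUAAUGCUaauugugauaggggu
miR-340-5p: uUAUAAAGcaaugagacugauu
miR-128-3p: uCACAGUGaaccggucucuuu
miR-126-3p: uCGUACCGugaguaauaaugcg
miR-342-3p: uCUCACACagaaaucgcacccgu
miR-3473b: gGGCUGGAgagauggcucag
miR-3472: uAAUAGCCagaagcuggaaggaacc

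Levels are given as log2 scaled signal, the background-subtracted fluorescence of a miRNA divided by the 75th percentile of its array, so 0 is that percentile and -7.59 is the floor for signals too dim to measure. Levels of different miRNAs depend on their probes and are not compared. Calls rest on limma, fitted over the 12 arrays of primary cells, at a Benjamini-Hochberg adjusted p under 0.05. Errors beside differences are standard errors of that fit, and errors beside means are SD with n = 3. The number of arrays limits the precision.

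More mouse miRNAs were detected per array in LS, with 246, 272 and 255 on LS 1, LS 2 and LS 3, than in DN, with 234, 222 and 192. The means were 258 ± 13.2 in LS and 216 ± 21.6 in DN, and the ranges did not overlap. The difference of 41.7 had p = 0.1 by a two-sided exact permutation test, the smallest p that 3 against 3 arrays can give. DN arrays correlated with each other at 0.992 to 0.995 over the miRNAs tested, LS arrays at 0.920 to 0.962, and DN with LS arrays at 0.856 to 0.927. The SD was larger in LS than in DN for 193 of the 229 miRNAs, with a median of 0.351 in LS and 0.115 in DN. miR-142-3p, a miRNA of all blood cells, lay at 2.12, 2.37 and 2.37 in DN and at 2.48, 2.54 and 2.20 in LS.

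Of the 229 miRNAs, 85 were called, 65 higher and 20 lower in LS. Of the 65 rises, 40 were detected on all arrays of both groups and 25 on all arrays of LS only, and of the 20 falls, 13 on all arrays of both groups and 7 on all arrays of DN only, so those 25 and 7 entered the comparison through the group in which they were high. Over all 268 tested, 32.1% were called, 24.3% as higher and 7.84% as lower. The rises had a median of 1.68 on the log2 scale and ran from 0.65 to 3.55, and the falls had a median of -1.21 and ran from -4.49 to -0.54. The median difference over all tested was 0.11. The 3 LS arrays lay above all 3 DN arrays for 88 miRNAs and below them for 55. Over all tested, these shares were 32.8% and 21.6%. In 58 of these non-overlapping miRNAs the difference was not called. The balance of rises to falls depended on the scaling. Rises made 76.5% of the calls here, but 56.8% (46 rises and 35 falls) with scaling over all mouse miRNAs, 57.3% (51 and 38) after quantile normalization, 61.8% (55 and 34) in the authors' value table and 56.5% (26 and 20) after normexp background correction. These settings moved the median over all tested to -0.28, -0.06, -0.09 and -0.10. Normexp as used here adds an offset of 50 to each signal, so differences of dim miRNAs shrink after it by construction. Leaving out single arrays moved the 85 calls to 43, 52 and 47 without DN 1, DN 2 or DN 3, to 37 and 56 without LS 1 or LS 2, and to 128 without ES 3. Here and below, a call lost without an array was lost when that array alone was left out. Of the 85 calls, 44 held after normexp, 20 with no filter on dim miRNAs, 65 with the floor raised 2 times, 75 in a fit of the 6 DN and LS arrays, 66 with scaling over all mouse miRNAs, 71 after quantile normalization and 71 in the authors' value table. Just inside the threshold were miR-23a-3p and miR-466f-3p (adjusted p = 0.0483 and 0.0497, limma), and just outside it miR-30a-5p and miR-3077-5p (0.0522 and 0.0553).

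**Figure D1:**
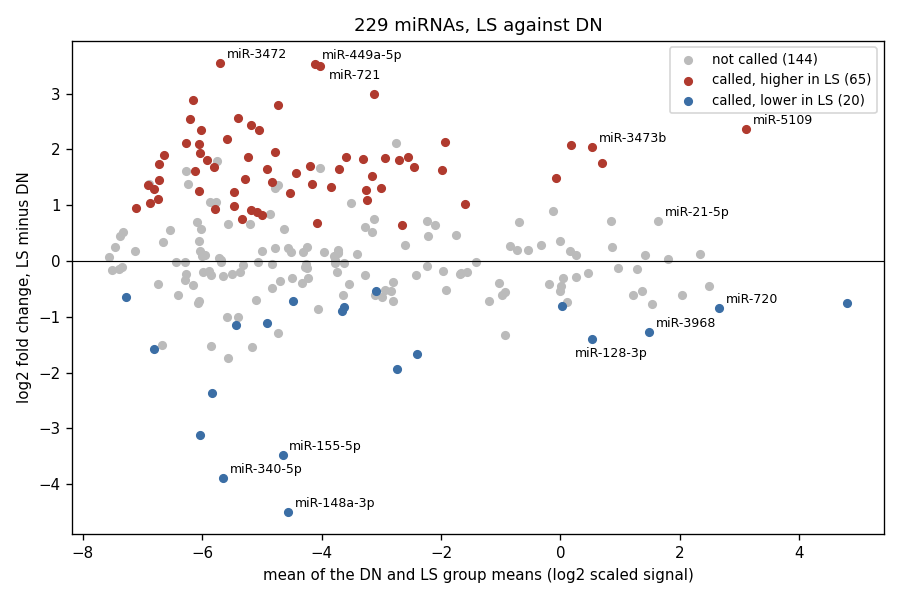
Each point is 1 of the 229 miRNAs, with the mean of its DN and LS levels (log2 scaled signal) on the x axis and its log2 fold change, LS minus DN, on the y axis. The 65 rises (red) run up to 3.55 and the 20 falls (blue) down to -4.49, with 144 miRNAs not called (grey).

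The arrays lay on 2 slides, each scanned once, and both slides held both groups. Slide 1 held DN 1, LS 1 and LS 2, and slide 2 held DN 2, DN 3 and LS 3. Among the 65 rises LS 1 was the highest LS array for 53 and LS 3 the lowest for 52. LS 3 was the only LS array on slide 2, so slide and sample cannot be told apart in this order. DN 1 correlated with DN 2 and DN 3, on the other slide, at 0.9952 and 0.9928. DN 2 and DN 3, both on slide 2, correlated at 0.9916. With slide as a block 77 of the 85 calls held. Slide 2 alone sets a single LS array against 2 DN arrays, and slide 1 alone sets a single DN array against 2 LS arrays. A group with a single array has no spread of its own, so no calls within a slide are given.

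**Figure D2:**
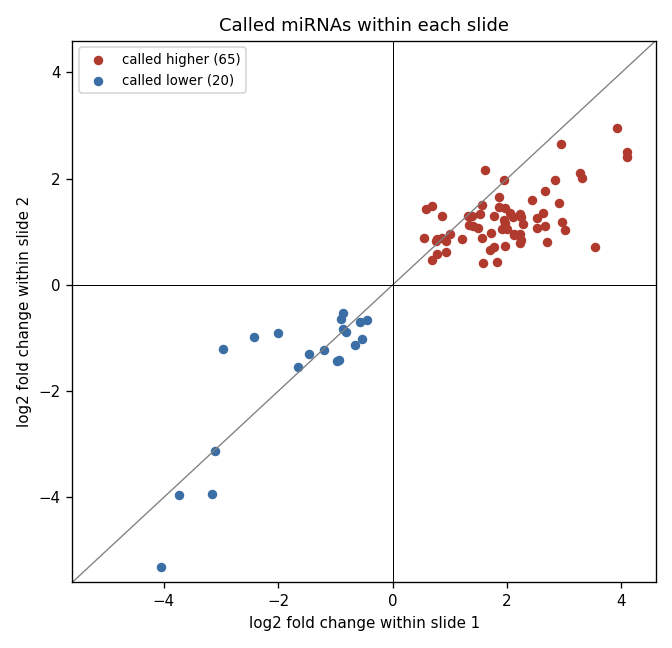
The log2 fold change of the 85 called miRNAs within slide 1 (x axis, 1 DN and 2 LS arrays) is plotted against that within slide 2 (y axis, 2 DN arrays and 1 LS array), with a line of equal values. Rises are red and falls blue; because the groups overlap for none of the 85, each point must lie on the same side of 0 in both slides, and only its size is free.

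miR-148a-3p, which is known to repress a DNA methyltransferase in lymphocytes, fell in LS. It lay at -2.36, -2.15 and -2.42 in DN and at -5.23 in LS 1, while LS 2 and LS 3 were at the floor. The fall of 4.49 ± 1.03 on the log2 scale had adjusted p = 0.0118 in limma. miR-148b-3p, with the same seed, lay between -5.38 and -5.16 in DN and between -5.68 and -5.05 in LS, a difference of -0.08 (95% interval -0.57 to 0.41) with overlapping groups. After quantile normalization both miRNAs were called lower (adjusted p of 0.036 or less, limma), so the lack of a call for miR-148b-3p depends on the scaling. The call of miR-148a-3p held with each of the 12 arrays left out. Since only LS 1 gave a measured LS level, the size of the fall depends on the floor and the background, and it was 3.83 with the floor raised 2 times and 2.16 after normexp.

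miR-155-5p, which is induced by activation of lymphocytes and needed for their responses, fell in LS as well. Its DN levels were -3.02, -2.77 and -2.95, and its LS levels were -4.77, -7.59 and -6.80. The difference was -3.47 ± 1.10 with adjusted p = 0.0349 in limma. LS 1 was the highest of the LS arrays and still lay below every DN array. The call was lost with slide as a block and without any single DN or DP array, LS 2 or LS 3. Among the 6 miRNAs of a lymphocyte activation list, it was the only one called, and the list's median was -0.66. miR-21-5p, which activation also induces and which acts as an oncogene, lay at 1.30, 1.41 and 1.12 in DN and at 2.79, 1.39 and 1.82 in LS, with overlapping groups and a difference of 0.72 ± 0.41 (adjusted p = 0.236, limma).

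Both arms of the miR-340 hairpin, miR-322-5p, miR-126-3p and miR-362-5p were well above background on no LS array, so their falls are lower bounds. They were computed with each LS array set to the higher of its level and the lowest signal well above background on it, and they hold for the floor and the background subtraction used here. With the floor raised 2 times the fitted differences of miR-340-5p, miR-340-3p, miR-322-5p and miR-126-3p were -2.89, -0.58, -2.11 and -1.70, and miR-362-5p was at the raised floor in both groups. After normexp the fitted differences of the same 4 were -1.37, -0.45, -0.95 and -0.76. miR-340-5p lay at -3.85, -3.55 and -3.71 in DN and at the floor on all 3 LS arrays, at least 14.1-fold lower (adjusted p = 0.0138, limma), a call lost without LS 1. The other arm, miR-340-3p, lay between -6.08 and -5.93 in DN and was at the floor in LS, at least 2.85-fold lower (adjusted p = 0.0314, limma), and this call was lost with the floor raised 2 times, after normexp, with slide as a block and without any single DN or LS array or DP 1. miR-322-5p, a miR-15/16 family member linked to cell-cycle arrest, lay at -4.49, -4.38 and -4.57 in DN and at the floor in LS, at least 8.24-fold lower (adjusted p = 0.0198, limma). Its call was lost with the floor raised 2 times and without any single DN array, LS 1 or LS 2. The other 4 measured family members with its seed lay close to DN: miR-15a-5p, miR-15b-5p, miR-16-5p and miR-195-5p differed by 0.18, 0.04, 0.10 and 0.34, none called. With scaling over all mouse miRNAs all 5 differences of the family were below 0.

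miR-126-3p, a miRNA of endothelial cells that haematopoietic stem and progenitor cells also express, lay at -4.63, -4.65 and -4.69 in DN. LS 1 and LS 2 were at the floor and LS 3 was at -5.88, so LS was at least 4.90-fold lower (adjusted p = 0.0044, limma). The call held with each of the 12 arrays left out. Of the 11 endothelial and stromal marker miRNAs on the array, it was the only one detected on any DN or LS array, and miR-143, miR-145, miR-199a and miR-214 were detected on none. The summed level of the 11, on the linear scale, was 0.0905 to 0.0924 in DN and 0.057 to 0.0713 in LS. In this sum and those below, markers at the floor enter with the floor value. The lowest LS sum is floor alone, so the sums do not give a fold between the groups. In DP, miR-126-3p lay at -6.69, -6.50 and -6.60, so LS differed from DP by only -0.42 (adjusted p = 0.397, limma). In bulk samples, fewer cells of a type and less RNA per cell cannot be told apart.

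The neighbouring miR-23a-3p and miR-27a-3p, which come from 1 primary transcript and act in T-cell differentiation, both fell. miR-27a-3p lay at -1.74, -1.71 and -1.82 in DN and at -5.13, -3.20 and -2.76 in LS, a difference of -1.94 ± 0.56 (adjusted p = 0.0239, limma). miR-23a-3p lay between -1.63 and -1.43 in DN and at -4.63, -2.64 and -2.42 in LS, a difference of -1.67 ± 0.57 (adjusted p = 0.0483, limma), just inside the threshold. LS 1 was the lowest array for both, and neither call held in the fit of the 6 DN and LS arrays alone. The call of miR-27a-3p was lost without any single DN array or LS 1, and that of miR-23a-3p without any single DN or DP array, ES 2, LS 1 or LS 2 or with slide as a block. The paralogous miR-27b-3p and miR-23b-3p differed by 0.65 and 0.47, with overlapping groups and no call. LS 1 was again the lowest LS array for both. miR-24-3p, made by both clusters, differed by -0.20 and was not called.

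miR-128-3p, known to target Phf6, a tumour suppressor of T-ALL, lay at 1.25, 1.33 and 1.09 in DN and at -0.68, 0.26 and -0.10 in LS. The fall of 1.40 ± 0.34 had adjusted p = 0.0138 in limma and was lost without LS 1. miR-3968 lay at 2.00, 2.18 and 2.20 in DN and at 0.79, 0.79 and 0.97 in LS, a difference of -1.27 ± 0.18 (adjusted p = 0.00114, limma). miR-720, since reassigned as a likely fragment of a transfer RNA, lay at 3.09, 3.04 and 3.1 in DN and at 2.23, 2.24 and 2.24 in LS, a difference of -0.84 ± 0.18 (adjusted p = 0.0096, limma). In both, the groups were far apart compared with their spread, and both calls held with each of the 12 arrays left out. miR-374c-5p, at -3.36, -3.12 and -3.17 in DN and -4.02, -4.01 and -4.28 in LS, fell by 0.89 ± 0.16 (adjusted p = 0.00455, limma) and its call held likewise. miR-425-5p fell by 0.83 ± 0.28 (adjusted p = 0.0459, limma), and this call was lost with slide as a block and without any single array of DN, DP or LS or ES 1.

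**Figure D3:**
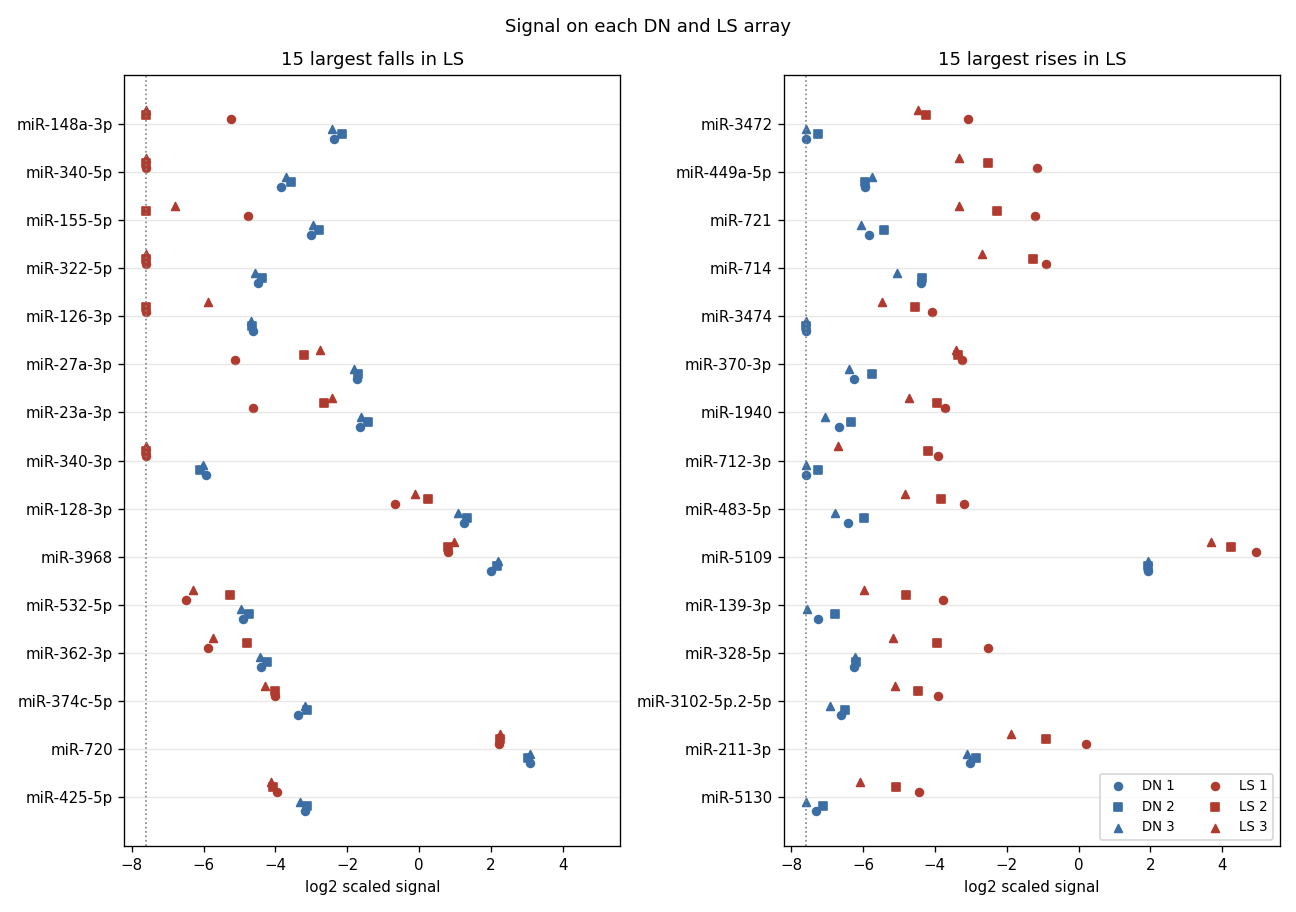
Each row is a miRNA, and each point is the log2 scaled signal (x axis) of 1 DN array (blue) or 1 LS array (red) for the 15 largest fitted falls (left) and rises (right) among called miRNAs whose groups do not overlap. The dotted line is the floor of -7.59. LS 1 (circle) is the highest LS array for most rises, and the DN arrays lie close together.

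A group of 4 neighbouring miRNA genes, miR-188, miR-362, miR-500 and miR-532, gave 6 of the miRNAs, of which 4 fell and 1 rose. miR-532-5p lay at -4.89, -4.73 and -4.96 in DN and at -6.50, -5.26 and -6.29 in LS, a difference of -1.15 ± 0.28 (adjusted p = 0.0138, limma). Both arms of miR-362 fell, the 3p arm by 1.11 ± 0.29 (adjusted p = 0.0187, limma) and the 5p arm to the floor of all 3 LS arrays, at least 1.49-fold lower (adjusted p = 0.0111, limma). miR-500-3p fell by 0.72 ± 0.18 (adjusted p = 0.0166, limma). LS 2 was the highest LS array of miR-532-5p, miR-362-3p and miR-500-3p. miR-188-5p rose in the same cells, from -5.31, -5.07 and -5.29 in DN to -3.21, -3.60 and -4.12 in LS, a difference of 1.58 ± 0.52 (adjusted p = 0.0416, limma). miR-532-3p was at or near the floor in both groups and was not called. These calls were lost without LS 1 for miR-532-5p, without DN 1, DN 2 or LS 1 for miR-362-3p, without DN 1 or DN 3 for miR-500-3p, and without any single DN or DP array, LS 1 or LS 2 for miR-188-5p. The call of miR-188-5p was also lost after normexp, with the floor raised 2 times and with a replicate block. That of miR-532-5p was also lost in the fit of DN and LS arrays alone.

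miR-449a-5p and miR-34a-5p share a seed and are both known as repressors of the cell cycle and of Notch1. miR-449a-5p lay at -5.94, -5.93 and -5.74 in DN and at -1.16, -2.53 and -3.33 in LS, a rise of 3.53 ± 0.64 (adjusted p = 0.00455, limma) that held with each of the 12 arrays left out. miR-34a-5p lay lower in LS, at -4.71, -4.59 and -4.80 in DN and at -7.03, -6.84 and -5.47 in LS. The groups did not overlap, but the difference of -1.74 ± 0.76 was not called (adjusted p = 0.11, limma). It was called lower with scaling over all mouse miRNAs (adjusted p = 0.0395, limma), after quantile normalization (0.0331), after normexp (0.0235), in the fit of the 6 DN and LS arrays (0.0362) and without ES 1 (0.0122) or ES 3 (0.0336).

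miR-721 shares its seed with the family of miR-130 and miR-301. It lay at -5.83, -5.43 and -6.05 in DN and at -1.20, -2.27 and -3.34 in LS, a rise of 3.50 ± 0.51 (adjusted p = 0.0015, limma). The other 3 measured members of that family, miR-130b-3p, miR-301a-3p and miR-301b-3p, differed by -0.40, -0.37 and -0.19, with no call.

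miR-342-3p, whose level is known to rise with lymphocyte maturation, rose in LS. It lay at -3.96, -4.12 and -3.69 in DN and at -1.78, -3.0 and -2.41 in LS, a difference of 1.53 ± 0.37 (adjusted p = 0.0133, limma) that was not called without LS 1. In DP it lay below DN, at -4.76, -4.77 and -4.87, so it did not rise from DN to DP here. The other arm, miR-342-5p, also on the list of maturation miRNAs, was at or near the floor in DN and LS. It differed by 0.07 (adjusted p = 0.776, limma). miR-150-5p, the remaining miRNA of that list and a repressor of Notch3, was not called either. It lay at -4.94, -4.69 and -4.11 in DN and at -3.60, -5.05 and -6.55 in LS, with a difference of -0.48 (95% interval -3.12 to 2.16).

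miR-709 and miR-451 have been reported to oppose Notch1-driven T-ALL in mice. miR-709 lay at -0.93, -0.35 and -1.18 in DN and at 1.20, 0.85 and -0.03 in LS, a rise of 1.49 ± 0.41 (adjusted p = 0.0199, limma) lost without DN 1, DN 3, LS 1 or LS 2. miR-451 lay at -0.06, -0.22 and -0.50 in DN and at -1.76, 0.58 and -3.56 in LS, with overlapping groups and a difference of -1.32 ± 1.18 (adjusted p = 0.45, limma). miR-451 is also the main miRNA of red cells. The 4 erythroid marker miRNAs on the array summed, on the linear scale, to 0.762 to 1.02 in DN, to 0.101 to 1.61 in LS and to 0.027 to 0.0378 in DP, and miR-144-3p, its neighbour in the genome, lay at -6.94, -3.27 and -7.59 in LS. The part of red cells in these levels was not tested.

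miR-3472 was at or near the floor in DN and at -3.09, -4.25 and -4.46 in LS, at least 11.0-fold higher (adjusted p = 0.000389, limma). Its fitted difference of 3.55 became 2.66 with the floor raised 2 times and 0.94 after normexp. miR-3473b had the same adjusted p, with -0.32, -0.60 and -0.55 in DN and 1.79, 1.45 and 1.41 in LS, a rise of 2.04 ± 0.21. miR-3473 rose by 1.84 ± 0.21 (adjusted p = 0.000401, limma), from between -3.92 and -3.77 in DN to between -2.24 and -1.75 in LS. Most of its mature sequence lies within that of miR-3473b. Whether the probes tell them apart was not tested, so these rises may not be separate. miR-5109, which was bright in both groups, lay at 1.94, 1.92 and 1.94 in DN and at 4.94, 4.25 and 3.68 in LS, a difference of 2.36 ± 0.30 (adjusted p = 0.000745, limma). These 4 calls held with each of the 12 arrays left out.

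Among the other rises named by their fitted size, miR-714 rose by 2.99 ± 0.48, miR-370-3p by 2.79 ± 0.54 and miR-211-3p by 2.14 ± 0.60. miR-370-3p lay at -3.26, -3.35 and -3.42 in LS, close together. miR-483-5p, made from an intron of Igf2, rose by 2.43 ± 0.65. Lower bounds were at least 6.57-fold for miR-3474, 5.90-fold for miR-1940, 5.52-fold for miR-712-3p, 5.09-fold for miR-139-3p, 5.05-fold for miR-328-5p, 4.54-fold for miR-3102-5p.2-5p and 4.32-fold for miR-5130. The calls of miR-721, miR-714, miR-370-3p, miR-1940, miR-139-3p and miR-3102-5p.2-5p held with each of the 12 arrays left out. The calls of miR-3474, miR-712-3p, miR-483-5p, miR-328-5p, miR-211-3p and miR-5130 were lost without LS 1. All of these but miR-5130 were also lost without DN 1, and miR-3474, miR-712-3p, miR-483-5p and miR-211-3p without DN 3 or LS 2. miR-3474 and miR-211-3p were lost without DN 2, and miR-3474 without DP 1. The fitted differences of the 7 miRNAs given as bounds were 0.31 to 0.85 after normexp, whose offset by itself shrinks differences of such dim miRNAs. After normexp the calls of miR-3474, miR-712-3p, miR-483-5p, miR-139-3p, miR-328-5p, miR-3102-5p.2-5p and miR-5130 were lost, and with the floor raised 2 times those of miR-3474, miR-712-3p and miR-5130. In all, 22 of the 65 rises and 5 of the 20 falls were against a group that was well above background on none of its arrays. Of the 85 calls, 34 held with each of the 12 arrays left out, 26 rises and 8 falls.

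The miR-17~92 cluster, whose members are oncogenic in T-ALL, lay lower in LS in all 9 measured members, but 0 of the 9 were called by limma and none had an unadjusted p under 0.05. miR-20a-5p lay at 1.93, 2.01 and 1.82 in DN and at 0.95, 1.03 and 1.46 in LS, a difference of -0.78 ± 0.39. miR-17-5p lay at -2.61, -2.32 and -2.41 in DN and at -3.38, -3.14 and -2.95 in LS, a difference of -0.71 ± 0.48. The 3 LS arrays lay below all 3 DN arrays for all 9 members, and their median difference was -0.61 against 0.11 over all tested. Over all tested, 21.6% lay below DN on all LS arrays. The median was -1.11 with scaling over all mouse miRNAs, -0.87 after quantile normalization, -0.78 in the authors' value table and -0.56 after normexp. The calls depended on the arrays that set the spread: 7 of the 9 were called in the fit of the 6 DN and LS arrays and 8 without ES 3. A list of 5 miRNAs known as oncogenic in T-ALL, 3 of them from this cluster, had a median of -0.71 with 0 called by limma and 0 with an unadjusted p under 0.05, though 5 were called in the fit of the 6 DN and LS arrays and 4 without ES 3. A list of 6 tumour-suppressive ones had a median of -0.54 with only miR-155-5p called, and 4 were called with scaling over all mouse miRNAs and in the fit of the 6 DN and LS arrays. The paralogous miR-106b and miR-106a clusters had a median of -0.46 over 7 members, with 0 called by limma and 2 with an unadjusted p under 0.05, and 3 were called in the fit of the 6 DN and LS arrays and 4 without ES 3.

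Of the 4 miR-181 miRNAs, miR-181c-5p was called, from -2.86, -2.78 and -2.84 in DN to -3.60, -3.01 and -3.48 in LS, a difference of -0.54 ± 0.18 (adjusted p = 0.0454, limma). The call was lost with slide as a block, with the filter on spots above background, in the fit of DN and LS arrays alone, and without any single DN or DP array, ES 2, LS 1 or LS 3. miR-181a-5p, the main member in thymocytes, lay at -0.98, -0.83 and -0.68 in DN and at -0.91, -0.01 and -0.99 in LS, a difference of 0.19 (95% interval -1.01 to 1.39). It was below 0 with scaling over all mouse miRNAs.

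The 8 let-7 miRNAs ranged from -0.31 to 0.35, with a median of -0.18, 0 called by limma and 0 with an unadjusted p under 0.05. The miR-29 family, known to be tumour-suppressive in T-ALL, lay below DN on all LS arrays in its 3 members, by 0.52 to 1.29 on the log2 scale, with 0 called by limma and 0 with an unadjusted p under 0.05, though 3 were called in the fit of the 6 DN and LS arrays and 3 with scaling over all mouse miRNAs (adjusted p = 0.013 to 0.0316, limma). The 5 miR-30 miRNAs had a median of -0.21, with 0 called by limma and 1 with an unadjusted p under 0.05. Of them, 4 were called lower in the authors' value table, with a median of -0.56, and after quantile normalization 3, with a median of -0.61. The 4 miRNAs of miR-26 and miR-101, known as repressors of Ezh2, had a median of -0.56 with 0 called by limma and 0 with an unadjusted p under 0.05. With scaling over all mouse miRNAs 2 of these 4 were called lower, with a median of -1.06, and 1 in the fit of the 6 DN and LS arrays. miR-30a-5p lay just outside the threshold at -1.01 ± 0.35 (adjusted p = 0.0522, limma).

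**Figure D4:**
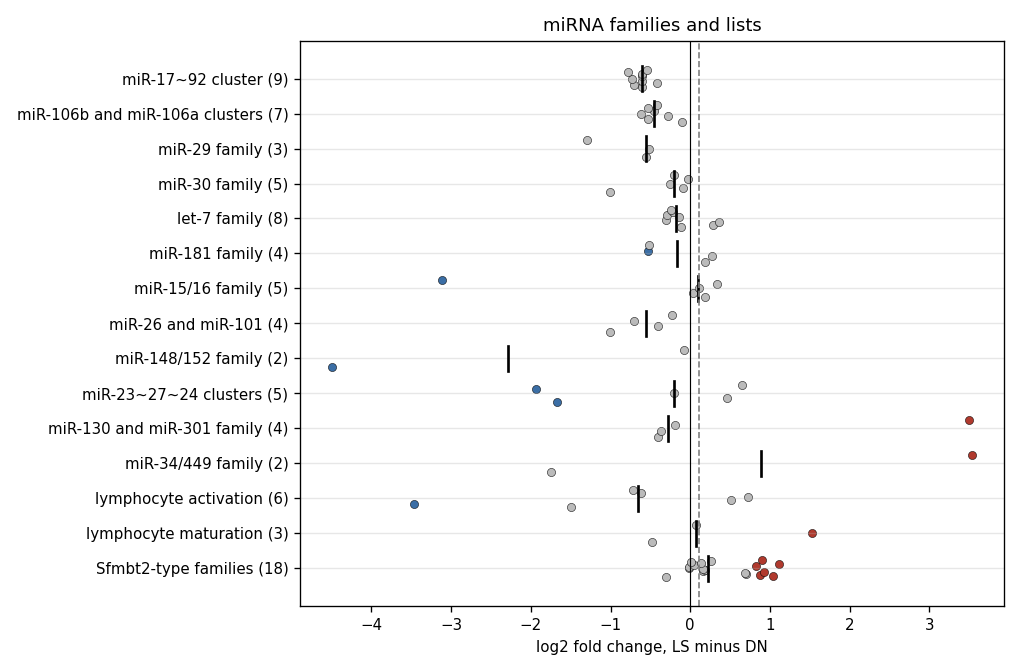
Each point is the log2 fold change, LS minus DN (x axis), of 1 miRNA of the family or list named at the left with its number of miRNAs. Blue points were called lower, red higher and grey not called, the bar is the median of the list, and the dashed line is the median over all tested, 0.11. The miR-17~92 cluster lies together at a median of -0.61 with no call.

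Of 61 array names of the miR-297, miR-466, miR-467 and miR-669 families, many of which are encoded in an intron of Sfmbt2, 18 were among the miRNAs compared and 6 were called higher, where 24.3% of all tested were called higher. The 6 were miR-466f-3p, miR-466h-3p, miR-466q, miR-467f, miR-669c-3p and miR-669p-3p, with rises from 0.83 to 1.11. The median of the 18 was 0.22, which turned to -0.28 with scaling over all mouse miRNAs, -0.20 after quantile normalization and -0.09 in the authors' value table. The calls fell to 0, 1 and 1 under these settings and to 0 after normexp. The slides differed as well, with a median of -0.38 in slide 1 and 1.21 in slide 2, and -0.38 without LS 3. No direction is given for the group.

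The Dlk1-Dio3 cluster, a large imprinted group of miRNAs that most adult tissues express weakly, had 91 names on the array and 3 among the miRNAs compared. miR-370-3p (above) and its neighbour miR-341-3p rose. miR-341-3p was at the floor in DN and at -4.79, -5.83 and -6.46 in LS, at least 3.31-fold higher (adjusted p = 0.0044, limma). Its fitted difference was 0.90 with the floor raised 2 times and 0.27 after normexp, with no call in either. miR-494-3p lay at 0.74, -0.50 and 1.23 in DN and at 0.76, 1.06 and 1.78 in LS, with overlapping groups.

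Of the markers of other cell types, miR-451, miR-144-3p, miR-126-3p and miR-223-3p were detected on all 3 DN arrays, and miR-451 and miR-141-3p on all 3 LS arrays. miR-223-3p, a myeloid miRNA, lay at -4.89, -5.31 and -5.08 in DN and at -6.64, -6.69 and -6.54 in LS, and was not called over the 12 arrays (adjusted p = 0.639, limma). The groups did not overlap, and the difference of -1.53 was called lower in the fit of the 6 DN and LS arrays (adjusted p = 0.00202, limma) and without ES 3 (0.00193), where the level reached 2.85. miR-141-3p, an epithelial miRNA, was near the floor in DN and at -6.23, -6.18 and -6.10 in LS, at least 2.21-fold higher (adjusted p = 0.00962, limma). The difference was -0.03 after normexp background correction. Of the 14 epithelial markers, 0 were detected on any DN array and 3 on at least 1 LS array, and miR-203, miR-205 and miR-429 on none. Their summed levels were 0.0726 to 0.074 in DN and 0.0845 to 0.102 in LS. The lowest DN sum is the floor value of all 14, and the other sums also hold the floor of undetected markers. Their part in the result was not tested. None of the 13 liver, muscle and brain markers was among the miRNAs compared, and miR-9-5p was detected on LS 1 alone of the 6 arrays, at -2.69.

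Both arms of 22 hairpins were measured. In 3 hairpins both arms were called in the same direction, miR-340 and miR-362 lower and miR-712 higher. In 6, 1 arm was called, and in none were the arms called in opposite directions. In miR-211 the 3p arm rose by 2.14 while the 5p arm differed by -0.17, with LS levels of -5.02, -6.86 and -6.03 that overlapped DN. A check of base composition over the called miRNAs was void, because a sequence was matched for only 77.7% of the 229 miRNAs and for 67.7% of the rises.

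ES and DP levels placed the differences. ES and LS carry the same genotype and sort, and the test of LS against ES is the test of whether their differences from DN were unequal. It called 7 of the 268 tested (2.61%), while ES against DN called 19 (7.09%), LS against DP 154 (57.5%) and DN against DP 79 (29.5%). The comparisons share groups and are not independent. ES arrays correlated with each other at 0.852 to 0.952, below the DN and LS arrays at their lowest. Without ES 3 LS against ES called 57 of the 229, and without ES 1 it called 3. ES 1 had 148 mouse miRNAs detected, against 238 on ES 2 and 281 on ES 3. Its negative controls had an SD of 18.7, against 5.49 and 6.14, and 14.4% of the 229 miRNAs were at the floor on it. miR-148a-3p lay at -5.01, -7.59 and -2.65 on ES 1, ES 2 and ES 3, and miR-155-5p at -5.29, -7.59 and -2.35. The highest LS level lay within the range of the ES arrays for both. miR-128-3p differed from DN by -1.48 in ES and by -1.40 in LS, and miR-449a-5p by 3.51 and 3.53.

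DN and DP levels differed for several of these miRNAs. miR-449a-5p lay at -3.75 on average in DP and at -5.87 in DN, and LS against DP gave 1.41 with no call (adjusted p = 0.0769, limma). miR-21-5p lay at 1.27 in DN, -1.04 in DP and 2.00 in LS. miR-181a-5p lay at -0.83 in DN, 1.88 in DP and -0.64 in LS. miR-148a-3p differed less between the thymocyte groups, at -2.31 in DN and -2.98 in DP, and LS lay below both. miR-362-3p was close to DP, with an LS minus DP difference of -0.12 (adjusted p = 0.722, limma).

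**Figure D5:**
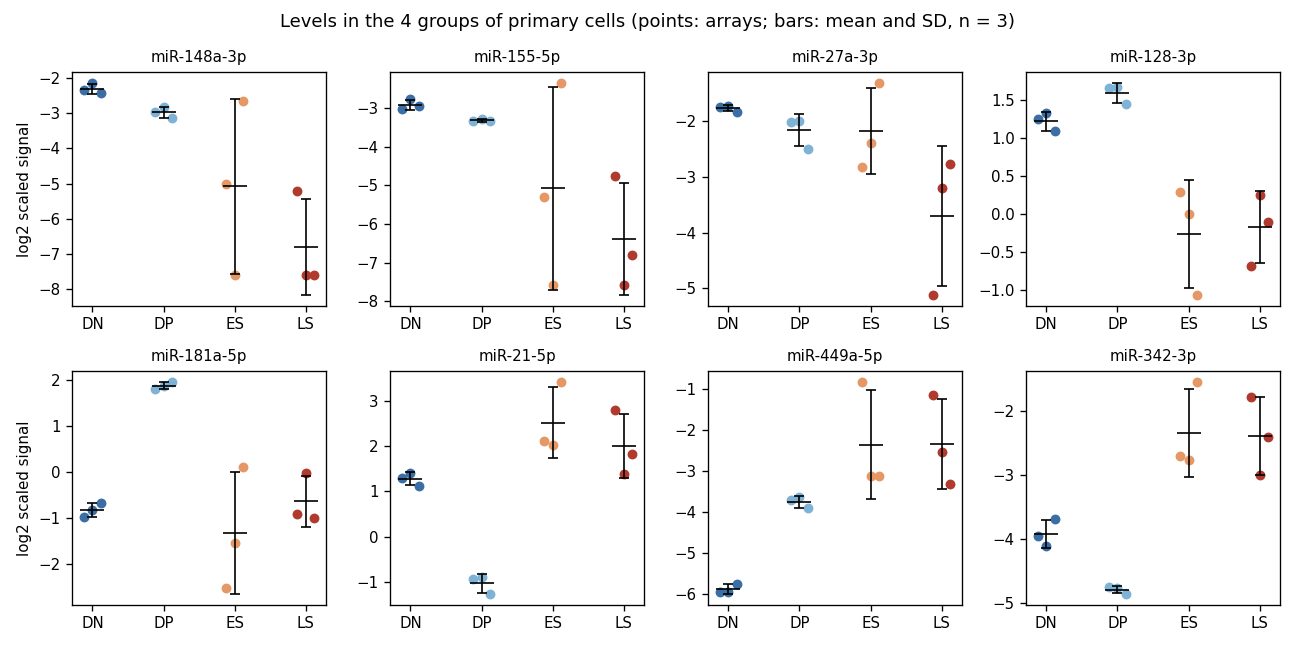
Log2 scaled signal (y axis) of 8 miRNAs on each array of DN, DP, ES and LS (x axis), with the mean and SD of each group (n = 3). miR-148a-3p and miR-128-3p lie lower on all LS arrays than on any DN or DP array, and ES values spread widely for miR-148a-3p and miR-155-5p.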

How the data were processed

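Total RNA of sorted cells (miRNeasy kit) was hybridised to 1-colour Agilent miRNA arrays, 3 per group. Per the file headers, the spots were quantified by Agilent Feature Extraction, version 10.7.3.1. The deposited scanner files give a background-subtracted fluorescence intensity per spot, not scaled between arrays. The authors also deposited a value table on the log2 scale. Its columns follow the scanner files' totals per miRNA. RMA, affy, MAS5 and GCOS are listed with no role, per the submitters' processing notes.

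Control and outlier spots (4.03 to 8.60% per array) were left out and no spot was saturated. Spots were averaged per probe and probes (1 to 4) per miRNA, divided by the array's 75th percentile over 108 mouse miRNAs (those well above background on every primary array), floored at -7.59 and put on the log2 scale. Well above background means that the software gave this mark to at least 50% of the remaining spots of 1 of the miRNA's probes. Detection uses the software's mark per miRNA. limma 3.58.1 (R 4.3.3) fitted 1 mean per group over the 12 primary arrays, with eBayes without trend and Benjamini-Hochberg adjustment over 268 miRNAs, after a check on simulated data. Tables were made with Python 3.11.15. The normexp alternative used the median spot and local background intensities with an offset of 50.

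Named were the 15 largest rises and falls among called miRNAs with no overlap of groups, members of family and marker lists, arms of a hairpin and miRNAs next to the threshold. miR-3473b, miR-3473, miR-500-3p, miR-188-5p, miR-344i, miR-690 and miR-142-3p were named besides, after their values were seen. The miRNAs and lists were chosen with earlier results of these data known. Alternatives tried were other scalings, background correction, filters, floor, arrays in the fit, slide, replicate block, variance trend and leaving out each array. The M295 cell line was not used here.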

Additional observations from a re-analysis of the deposited data

Results flagged for a closer look

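7 miRNAs differed from DN by unequal amounts in LS and ES, by limma's test of LS against ES over 268 miRNAs (adjusted p under 0.05). The LS minus ES differences were 1.72 for miR-341-3p, 1.45 for miR-712-5p, 1.33 for miR-3473b, 1.32 for miR-344i, 1.16 for miR-3473 and 0.96 for miR-690, which were higher in LS, and -0.86 for miR-3968, which was lower. miR-3473b and miR-3473 share most of their sequence and may not be separate. miR-3473b lay at 0.13, -0.04 and 0.57 on the ES arrays and at 1.79, 1.45 and 1.41 on the LS arrays, and the ES minus DN difference was 0.71 against 2.04 for LS minus DN. miR-690 lay at -1.75, -1.99 and -2.40 in ES and -1.0, -1.41 and -0.85 in LS, with DN between -2.16 and -2.06. miR-712-5p lay at -5.63, -5.21 and -5.27 in ES and at -3.78, -3.23 and -4.74 in LS. The number of such miRNAs depended on single arrays, as given with the other settings.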

How the results depend on the processing

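The 85 calls of LS against DN became 46 after normexp background correction and 20 with no filter on dim miRNAs. They ranged from 37 to 128 with 1 array left out. The 65 rises became 26 after normexp, 13 with no filter and 27 to 84 with 1 array left out. The 20 falls became 35 with scaling over all mouse miRNAs, 38 after quantile normalization and 34 in the authors' value table. They became 7 with no filter, 40 with DN and LS arrays alone and 10 to 44 with 1 array left out. The 7 calls of LS against ES became 12 with scaling over all mouse miRNAs, 4 after quantile normalization, 4 in the authors' value table and 4 after normexp. With 1 array left out they numbered 2 to 57. They became 0 in limma with no filter, where 36 of the 229 miRNAs had an unadjusted p under 0.05. DN against DP called 53 of the 229 miRNAs, which became 28 with no filter, 14 in slide 1, 109 in slide 2 and 31 to 87 with 1 array left out. With no filter, 1122 miRNAs were tested in place of 268, and fits with fewer arrays have less to estimate the spread from. The normexp offset of 50 by itself shrinks differences of dim miRNAs. Calls within a slide are not given, because each slide leaves groups with a single array. The cause of the other changes was not tested.

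After normexp 3 differences reversed, miR-141-3p (-0.03), miR-466f-3p (-0.08) and miR-669c-3p (-0.06). These 3 are dim miRNAs, whose differences the normexp offset shrinks. In slide 2 alone miR-466b-3p (1.15), miR-467c-5p (1.22) and miR-467e-5p (1.36) differed in the other direction. Same-numbered DN and LS arrays deviated from their group means with correlations of -0.175, 0.085 and 0.015. These show no sign of pairing by number, but deviations from means of 3 arrays cannot exclude it. A replicate block gave 73 calls over 12 arrays, 58 (39 rises) with DN and LS arrays alone and 3 for LS against ES. The difference in miRNAs detected per array was 37.3 with the marks of spots in place of those of miRNAs.

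The LS arrays varied more than the DN arrays, and the pooled spread includes ES 3 and ES 1, the array with the fewest miRNAs detected. miRNAs at the floor have no order, and folds against them are bounds. Differences are relative to the scaling, which moved the median over all tested by up to 0.39.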
